A study of Yarrowia lipolytica with 3 samples.

Results

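The 8 genes described here encode the enzymes of the peroxisomal β-oxidation spiral of Yarrowia lipolytica, a dimorphic yeast that grows on fats and alkanes. They are the 6 acyl-CoA oxidase genes POX1 (YALI0E32835g), POX2 (YALI0F10857g), POX3 (YALI0D24750g), POX4 (YALI0E27654g), POX5 (YALI0C23859g) and POX6 (YALI0E06567g), the multifunctional enzyme gene MFE1 (YALI0E15378g) and the thiolase gene POT1 (YALI0E18568g). They were chosen by identifier, 8 of the 6448 genes listed. RNA was sequenced from 3 strains with 1 library each: an mhy1Δ mutant that lacks MHY1, a mutant that overexpresses MHY1, and the wild-type strain. MHY1 encodes a zinc-finger transcription factor known for its part in hyphal growth. All 3 strains are labelled PO1a and were grown in YNDC7 liquid medium with added uracil at 30 °C to an OD600 of 0.8. The labels do not say how MHY1 was overexpressed or whether each strain is 1 clone.

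In β-oxidation a fatty acyl-CoA is shortened from its carboxyl end in repeated rounds. An acyl-CoA oxidase introduces a double bond and passes the electrons to oxygen, which yields hydrogen peroxide. The multifunctional enzyme then hydrates the double bond and oxidizes the product to a 3-ketoacyl-CoA, and the thiolase releases acetyl-CoA. In yeasts the whole spiral lies in peroxisomes, and in Y. lipolytica its first step is shared among a family of oxidases with different chain-length preferences. Growth on fatty acids is known to induce these genes, whereas the sources used here name no fatty acid in the cultures.

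The files give expression as RPKM, a read number divided by gene length and library size, so levels can be compared between genes. Whole reads were recovered from the steps of the RPKM values, with totals of 59527000 reads in mhy1Δ, 75306802 in MHY1 overexpression and 47622181 in wild type. MHY1 (YALI0B21582g) was listed at 0 RPKM in mhy1Δ and was at 1159 RPKM in MHY1 overexpression and 467 RPKM in wild type, the order the labels give. Since each strain has 1 library, the differences below rest on no replicates and no test was run. The intervals are 95% intervals for counting error only, and reads without molecular identifiers are not independent molecules. Folds are plain RPKM ratios, whereas a gene was called when log2((x + 1)/(y + 1)) reached 2-fold. The median of this log2 ratio over the 6035 genes compared was −0.03 for mhy1Δ against wild type, 0.16 for MHY1 overexpression against wild type and 0.20 for MHY1 overexpression against mhy1Δ.

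The names were checked by coding length, which cannot tell POX2 from POX3 because their recovered lengths are the same. The recovered lengths were 2034 bp for POX1, 2103 bp for POX2 and for POX3, 2106 bp for POX4, 2706 bp for MFE1 and 1245 bp for POT1, each with a difference of 0 bp from the length of the protein as recalled. For POX5 and POX6 the recovered lengths were 1050 and 1035 bp, and 2 times these, 2100 and 2070 bp, equalled the recalled lengths. MHY1, at 858 bp, likewise had its recalled length. The true read numbers of POX5 and POX6 may therefore be 2 times those given, which leaves RPKM as it is and makes their counting intervals too wide. The 6 oxidases are paralogs, and the labels do not say how reads that could match several of them were assigned.

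All 8 genes were detected in each library, over a wide range of levels. In wild type the order was MFE1 at 568 RPKM, POT1 at 203, POX3 at 126, POX2 at 78.8, POX4 at 35.0, POX6 at 34.2, POX5 at 30.2 and POX1 at 2.41 RPKM. Between neighbours in this order, the interval of the ratio held 1 for POX4 over POX6 (1.02, 0.965 to 1.09) and for no other pair. MFE1 ranked 330 among the 6448 genes in mhy1Δ, 318 in MHY1 overexpression and 330 in wild type. At the other end, POX1 lay at percentile 11.8 in mhy1Δ, 13.8 in MHY1 overexpression and 12.7 in wild type.

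**Figure D1:**
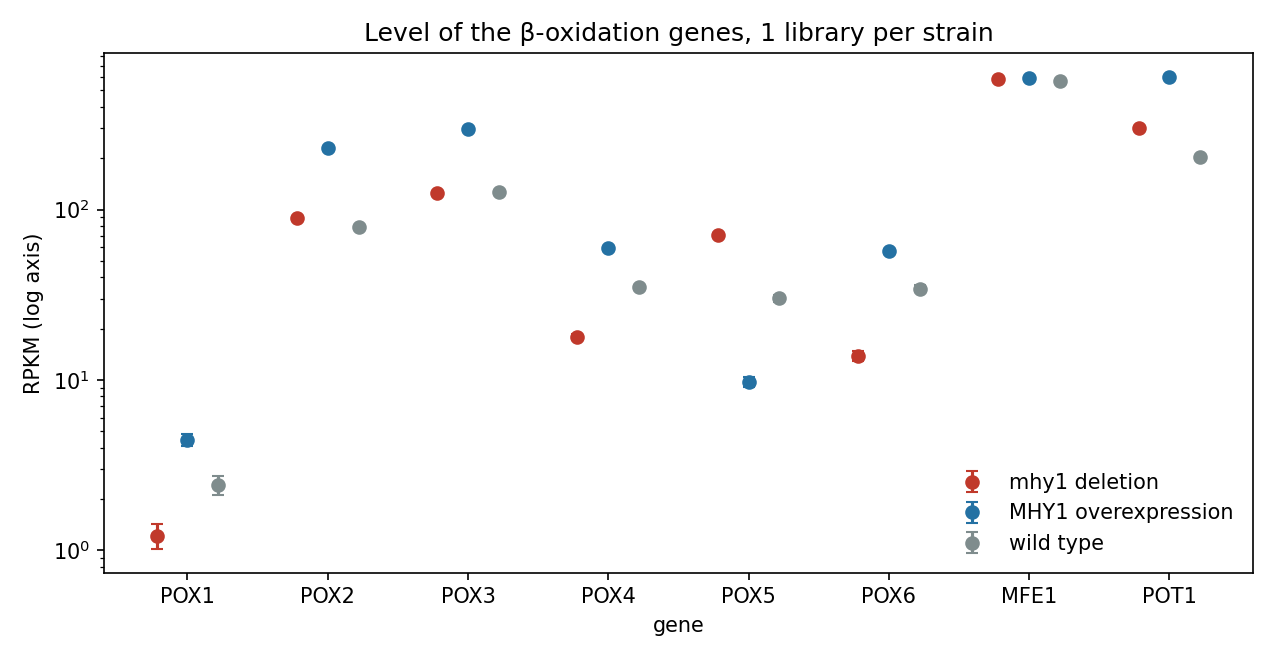
RPKM of each gene on a log axis in mhy1Δ (red), MHY1 overexpression (blue) and wild type (grey), 1 library per strain, with bars for the 95% Poisson counting interval. The 3 points of MFE1 nearly coincide between 568 and 591 RPKM, and POX5 is the gene whose blue point is the lowest of its 3.

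POX2 and POX3 were the most strongly expressed oxidase genes in every library. The POX2 enzyme is known to prefer long-chain and the POX3 enzyme short-chain acyl-CoAs. POX2 was at 88.7 RPKM in mhy1Δ, 231 RPKM in MHY1 overexpression and 78.8 RPKM in wild type, from 11110, 36615 and 7890 reads. It was thus 2.93-fold higher in MHY1 overexpression than in wild type (2.86 to 3.01), while mhy1Δ lay close to wild type, at a ratio of 1.13 (1.09 to 1.16). POX3 was at 125 RPKM in mhy1Δ, 297 RPKM in MHY1 overexpression and 126 RPKM in wild type. It showed the same high value in the overexpression library, 2.35-fold above wild type (2.30 to 2.39), and its ratio of 0.988 between mhy1Δ and wild type had an interval that held 1 (0.965 to 1.01). For both genes the library with extra MHY1 stood apart from the other two. Among the 6448 genes POX2 ranked 1541 in mhy1Δ, 710 in MHY1 overexpression and 1719 in wild type. In a bulk culture, less RNA in every cell and fewer cells that express a gene cannot be told apart.

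POX4 and POX6 shared another pattern, low in mhy1Δ and high in MHY1 overexpression. The POX4 enzyme is known for weak activity over a broad range of chain lengths. POX4 was at 17.8 RPKM in mhy1Δ, 59.4 RPKM in MHY1 overexpression and 35.0 RPKM in wild type. Against wild type it was 1.97-fold lower in mhy1Δ (1.87 to 2.08) and 1.70-fold higher in MHY1 overexpression (1.63 to 1.76). POX6 was at 13.9 RPKM in mhy1Δ, 56.8 RPKM in MHY1 overexpression and 34.2 RPKM in wild type. It was 2.46-fold lower in mhy1Δ (2.27 to 2.68) and 1.66-fold higher in MHY1 overexpression (1.57 to 1.76), each against wild type. Wild type was intermediate for both genes, and their level ratio, POX4 over POX6, was 1.28 in mhy1Δ (1.18 to 1.39), 1.05 in MHY1 overexpression (1.01 to 1.08) and 1.02 in wild type (0.965 to 1.09).

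POX1, the least expressed oxidase gene in each library, was ordered like POX4 and POX6. It was at 1.21 RPKM in mhy1Δ, 4.45 RPKM in MHY1 overexpression and 2.41 RPKM in wild type, from 146, 681 and 233 reads. Its plain ratio was 1.99-fold lower in mhy1Δ than in wild type (1.62 to 2.47) and 1.85-fold higher in MHY1 overexpression (1.59 to 2.15). At these levels the pseudocount of 1 RPKM shrinks the ratio, and the log2 values were −0.63 and 0.68.

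POX5 ran opposite to POX1, POX4 and POX6. It was at 71.1 RPKM in mhy1Δ, 9.75 RPKM in MHY1 overexpression and 30.2 RPKM in wild type, from 4445, 771 and 1508 recovered reads. It was therefore high where MHY1 was absent and low where MHY1 was raised, 7.29-fold lower in MHY1 overexpression than in mhy1Δ (6.76 to 7.88). Against wild type it was 2.36-fold higher in mhy1Δ (2.22 to 2.50) and 3.09-fold lower in MHY1 overexpression (2.83 to 3.38). Its rank among the 6448 genes was 1840 in mhy1Δ, 5062 in MHY1 overexpression and 3218 in wild type. The level ratio POX5 over POX6 was 5.12 in mhy1Δ (4.76 to 5.51), 0.172 in MHY1 overexpression (0.159 to 0.185) and 0.881 in wild type (0.821 to 0.945). Since both genes come from the same library, this ratio does not depend on how libraries were scaled. Against POX2 the POX5 level was 0.801 in mhy1Δ (0.774 to 0.830), 0.0422 in MHY1 overexpression (0.0392 to 0.0453) and 0.383 in wild type (0.362 to 0.405).

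MFE1, the multifunctional enzyme gene of the middle steps, was at 582 RPKM in mhy1Δ, 591 RPKM in MHY1 overexpression and 568 RPKM in wild type. The ratios were 1.02 for mhy1Δ against wild type (1.01 to 1.03), 1.04 for MHY1 overexpression against wild type (1.03 to 1.05) and 1.02 for MHY1 overexpression against mhy1Δ (1.01 to 1.03). These are the smallest differences of the 8 genes in the last 2 comparisons, and in both the log2 ratio went below 0 when the libraries were scaled by upper quartile or by median of ratios, and when ratios were centred on all genes. In the comparison of mhy1Δ with wild type POX3 differed less than MFE1.

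POT1, whose thiolase ends each round, was at 303 RPKM in mhy1Δ, 598 RPKM in MHY1 overexpression and 203 RPKM in wild type. It was higher than wild type in both engineered strains, 1.49-fold in mhy1Δ (1.46 to 1.53) and 2.95-fold in MHY1 overexpression (2.89 to 3.01). Between the engineered strains it was 1.97-fold higher in MHY1 overexpression (1.94 to 2.01), and its log2 ratio of 0.98 fell short of a call by a narrow margin. In MHY1 overexpression POT1 passed MFE1 as the most strongly expressed of the 8 genes by a ratio of 1.01 (1.00 to 1.02).

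**Figure D2:**
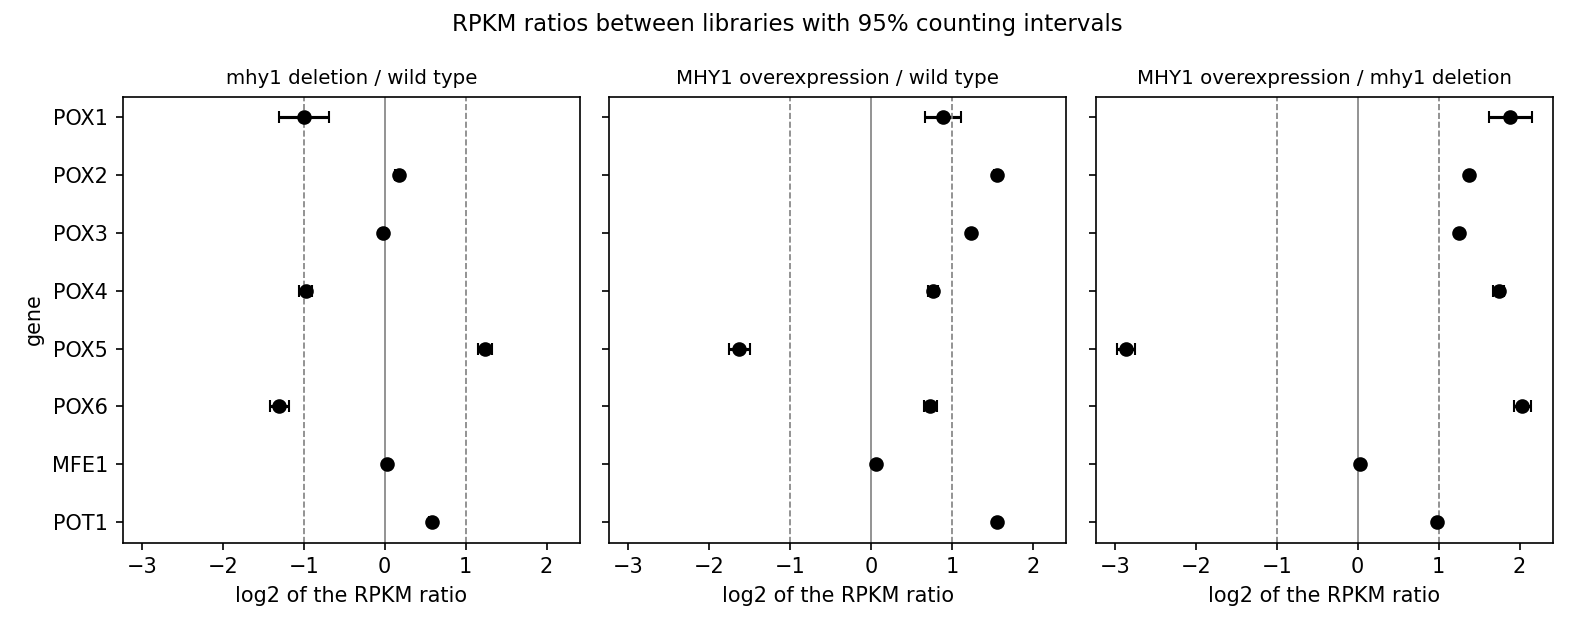
Log2 of the RPKM ratio of each gene for mhy1Δ over wild type (left), MHY1 overexpression over wild type (middle) and MHY1 overexpression over mhy1Δ (right), with 95% counting intervals and dashed lines at 2-fold. POX5 lies at 1.24, −1.63 and −2.87 in the 3 panels, on the other side of 0 from POX4 and POX6 in each.

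The comparison of mhy1Δ with wild type sets the library without MHY1 RNA beside the wild-type one. With 1 library per strain, dependence on MHY1 was not tested. Of the 8 genes 1 was called higher, POX5, and 1 was called lower, POX6, while 6 stayed within 2-fold. Over all 6035 genes compared, 1.66% were called higher and 5.83% lower. Among these genes the log2 ratio of POX5 lay at percentile 98.9 and that of POX6 at percentile 3.70. POX4, with a log2 ratio of −0.94, was just inside the line. The median log2 ratio of the 8 genes was 0.01, beside −0.03 over all genes, with 4 above 0 and 4 below. The summed RPKM of POX1 to POX6 was 318 in mhy1Δ and 307 in wild type, a ratio of 1.03 (1.02 to 1.05), so that opposite differences within the family left its total nearly level.

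The comparison of MHY1 overexpression with wild type sets the library with raised MHY1 RNA beside the wild-type one. With 1 library per strain, a response to extra MHY1 was not tested. POX2, POX3 and POT1 were called higher, 3 of 8 genes, and POX5, 1 of 8, was called lower. Of all genes compared, 5.98% were called higher and 2.47% lower. The log2 ratio of POT1 lay at percentile 98.0 of all genes, that of POX2 at 97.9, that of POX3 at 96.4 and that of POX5 at 1.19. The other 4 genes were within 2-fold, and of these POX1, POX4 and POX6 had log2 ratios of 0.68, 0.75 and 0.72. The median of the 8 log2 ratios was 0.73, beside 0.16 over all genes. The summed oxidase RPKM was 658 in MHY1 overexpression and 307 in wild type, 2.14-fold higher (2.12 to 2.17). Under median of ratios scaling this ratio was 1.95 and under upper-quartile scaling 1.998.

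The comparison of MHY1 overexpression with mhy1Δ sets the libraries with the most and the least MHY1 RNA side by side. Here 5 of 8 genes were called higher (POX1, POX2, POX3, POX4 and POX6) and 1, POX5, lower, so that every oxidase gene was called. Over all genes 15.0% were called higher and 4.74% lower. POX6 was 4.09-fold higher (3.80 to 4.41), POX1 3.69-fold (3.08 to 4.44), POX4 3.34-fold (3.19 to 3.50), POX2 2.61-fold (2.55 to 2.66) and POX3 2.38-fold (2.33 to 2.42). With a pseudocount of 5 RPKM the log2 ratio of POX1 was 0.61 and its call was lost. The median of the 8 log2 ratios was 1.27, beside 0.20 over all genes, and centring on that shift left 5 genes called higher and 1 lower. This comparison shares a library with each of the others.

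The 3 enzyme steps were at different levels relative to each other in the strains. In mhy1Δ the oxidases summed to 318 RPKM, against 582 RPKM for MFE1 and 303 RPKM for POT1. In MHY1 overexpression the same quantities were 658, 591 and 598 RPKM, close to level. In wild type they were 307, 568 and 203 RPKM. MFE1 was thus 1.92-fold above POT1 in mhy1Δ (1.89 to 1.95), 0.989 times POT1 in MHY1 overexpression (0.979 to 0.999) and 2.80-fold above POT1 in wild type (2.75 to 2.86). Set against the oxidase sum, MFE1 was at 1.83 in mhy1Δ (1.81 to 1.85), 0.898 in MHY1 overexpression (0.890 to 0.905) and 1.85 in wild type (1.83 to 1.88). These are ratios within a library and measure RNA, not enzyme amount or activity.

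**Figure D3:**
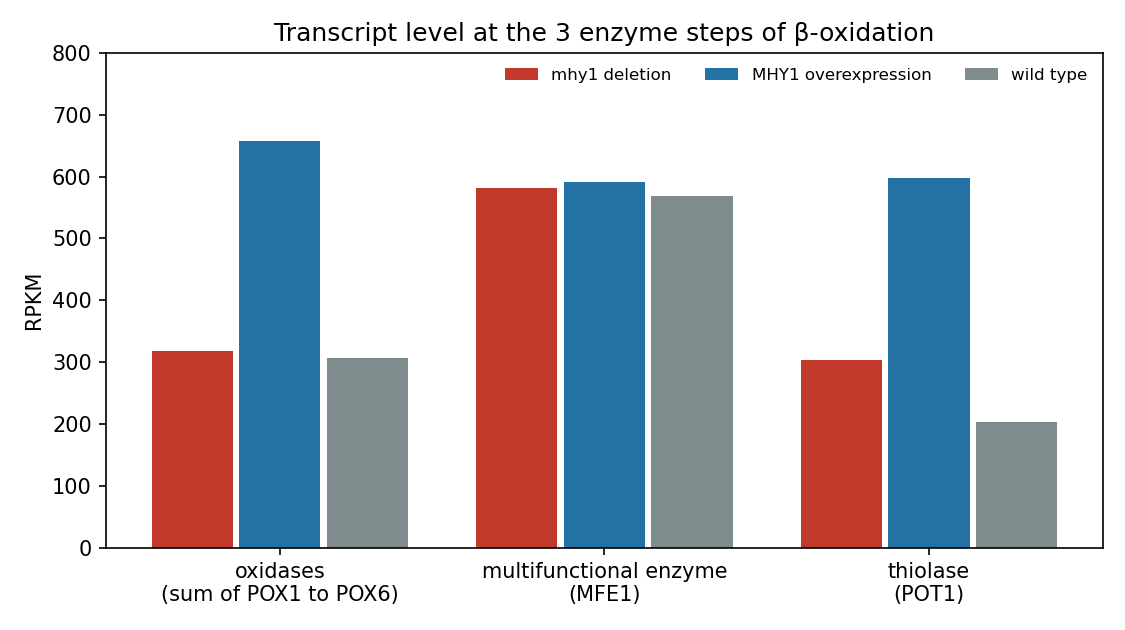
RPKM of the oxidase genes summed, of MFE1 and of POT1 in mhy1Δ (red), MHY1 overexpression (blue) and wild type (grey), 1 library per strain. The 3 blue bars lie between 591 and 658 RPKM, whereas the red and grey bars are uneven, with MFE1 above the other steps.

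The make-up of the oxidase transcripts also differed between the strains. POX5 contributed 22.4% of the summed oxidase RPKM in mhy1Δ (21.8 to 23.0%), 1.48% in MHY1 overexpression (1.38 to 1.59%) and 9.82% in wild type (9.36 to 10.3%). Each interval is a binomial one with the oxidase total scaled to the gene's own recovered length, and is therefore approximate. POX4 contributed 5.60%, 9.03% and 11.4% in mhy1Δ, MHY1 overexpression and wild type, and POX6 contributed 4.37%, 8.63% and 11.1%. In mhy1Δ the larger share of POX5 thus stood beside smaller shares of POX4 and POX6. POX2 made up 27.9% in mhy1Δ, 35.1% in MHY1 overexpression and 25.7% in wild type, and POX3 made up 39.3%, 45.1% and 41.2% in the same order. Together POX2 and POX3 held 67.2% of the oxidase RPKM in mhy1Δ, 80.2% in MHY1 overexpression and 66.8% in wild type. POX1 stayed under 1% in each library, at 0.380%, 0.675% and 0.784%.

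**Figure D4:**
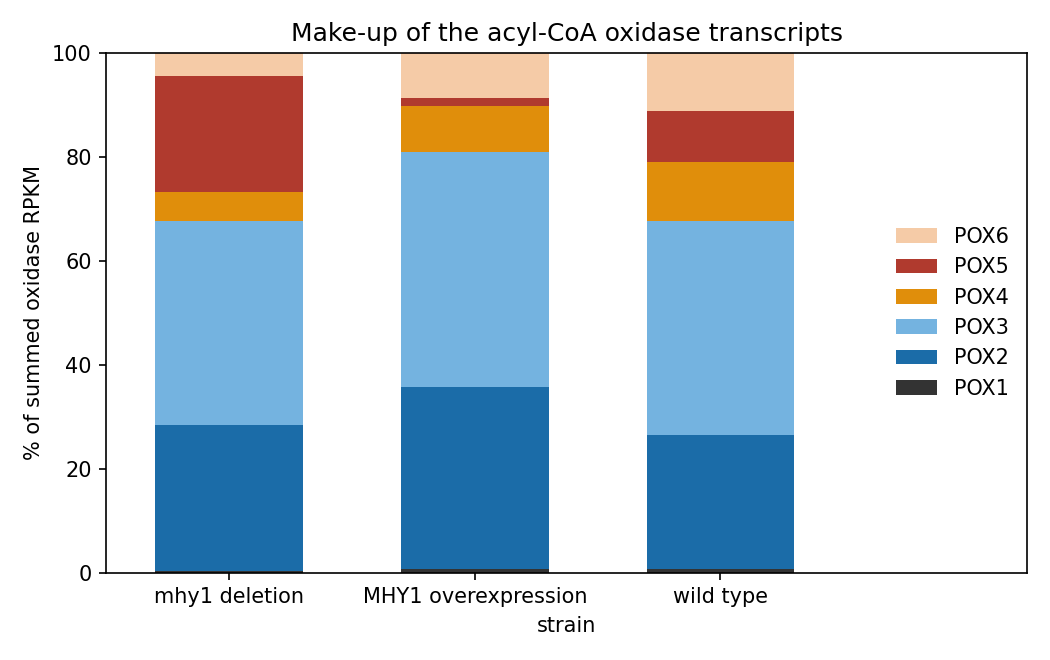
Share of each oxidase gene in the summed RPKM of POX1 to POX6, in percent, stacked for mhy1Δ, MHY1 overexpression and wild type, 1 library per strain. The dark red POX5 segment takes 22.4% in mhy1Δ, 1.48% in MHY1 overexpression and 9.82% in wild type.

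Likeness of pattern was measured as the distance between genes in the 2 log2 ratios against wild type, which share the wild-type library. Over 3 libraries many genes can come close to a pattern, though how many differs widely between the members. The places are therefore a description. POX2 lay 0.37 from POX3 and 0.41 from POT1, which were in places 45 and 52 among the 6034 other genes compared. POX3 and POT1 were farther from each other, at 0.68, with POX3 in place 78 from POT1 and POT1 in place 613 from POX3. POX4 and POX6 were 0.30 apart, with POX4 in place 72 from POX6 and POX6 in place 105 from POX4. POX1 was nearest to POX4 among the 8 genes, at 0.32, with POX4 in place 297 from POX1, and lay 0.62 from POX6. From POX5 each of the other oxidase genes was among the most distant genes, in places 5364 to 5719. Within a distance of 0.25 lay 175 genes for POX1, 19 for POX2, 48 for POX3, 72 for POX4, 7 for POX5, 46 for POX6, 1548 for MFE1 and 10 for POT1.

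The genes outside the pathway with the pattern nearest to POX5 were YALI0F05720g, at 1025 RPKM in mhy1Δ, 143 in MHY1 overexpression and 428 in wild type, and YALI0B00924g, at 155, 24.0 and 72.6 RPKM in the same order. Both were well expressed, and their log2 distances from POX5 were 0.065 and 0.13. For POX2 the nearest were YALI0C05236g, at 0.264, 2.40 and 0.124 RPKM, and YALI0D07502g, at 1.31, 5.37 and 1.05 RPKM in mhy1Δ, MHY1 overexpression and wild type. These are weak genes whose ratios the pseudocount shrinks strongly. The files give no names for these identifiers.

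**Figure D5:**
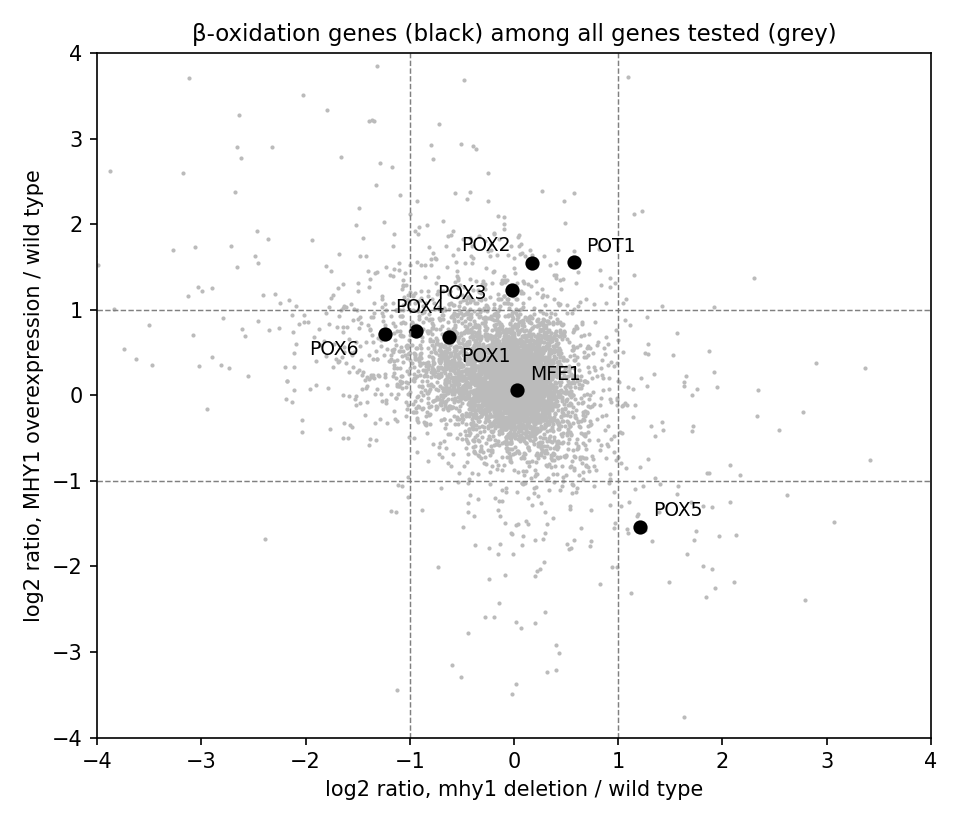
Log2 ratio of mhy1Δ over wild type (horizontal) against log2 ratio of MHY1 overexpression over wild type (vertical) for the 6035 genes compared, with the 8 β-oxidation genes in black and dashed lines at 2-fold; 25 genes lie outside the axes, which end at 4. POX5 lies apart from the other members at 1.21 and −1.54, POX6, POX4 and POX1 to the upper left, POX2, POX3 and POT1 at the top, and MFE1 near the centre; the ratios share the wild-type library.

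Going by the chromosome letter in their identifiers, 5 of the 8 genes carry E and the others C, D and F. The listed identifiers on either side of each gene, 16 in all and added after the values were seen, gave a view of the surroundings. In mhy1Δ against wild type 0 of the 16 were called, with log2 ratios between −0.76 and 0.56, where 1.66% of all genes were called higher and 5.83% lower. In MHY1 overexpression against wild type 2 were called higher and 2 lower, beside 5.98% and 2.47% of all genes. In MHY1 overexpression against mhy1Δ 4 were called higher and 2 lower, beside 15.0% and 4.74%. The 2 called higher than in wild type were those on either side of POX2, at 19.4 and 3.30 RPKM in MHY1 overexpression and at 0.583 and 0.575 RPKM in wild type. Of the 2 called lower, 1 lay beside POX6, at 1.67 RPKM in MHY1 overexpression and 7.22 RPKM in wild type. The other lay beside POT1, at 3.27 and 14.5 RPKM in the same order. POX6 and POT1 were themselves above wild type in that library. The identifiers next to POX5 were at 0.111 and 3.45 RPKM in mhy1Δ, at 1.73 and 3.34 RPKM in MHY1 overexpression and at 0.885 and 6.18 RPKM in wild type. Neither was called against wild type, and in MHY1 overexpression against mhy1Δ the weaker of them in mhy1Δ was called higher, with a log2 ratio of 1.30, where POX5 was lower.

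Other genes that serve β-oxidation were followed as a list of 17 identifiers recalled from general knowledge, which the files do not annotate. In mhy1Δ against wild type 3 of the 17 were called higher and 0 lower, with a median log2 ratio of 0.13, where 1.66% and 5.83% of all genes were called. The 3 were both identifiers listed for catalase, which breaks down the hydrogen peroxide made by the oxidases, and 1 of 3 listed for the glyoxylate cycle, which uses the acetyl-CoA released. Another glyoxylate cycle identifier, at 1464 RPKM in mhy1Δ and 732 RPKM in wild type, fell just short of a call with a log2 ratio of 0.9985. The count called higher was 4 under both other scalings and after centring, and 2 with a pseudocount of 5 RPKM. Of the catalase identifiers, 1 was weak, at 1.96 RPKM in wild type. In MHY1 overexpression against wild type 2 were called higher and 2 lower, with a median of 0.17, beside 5.98% and 2.47% of all genes. The higher ones were 1 of 5 listed for fatty acid activation and peroxisomal import and 1 of 2 listed for lipolysis, and the lower ones 1 of 2 for catalase and 1 of 3 for the glyoxylate cycle. In MHY1 overexpression against mhy1Δ 3 were called higher and 3 lower, with a median of 0.03, beside 15.0% and 4.74% of all genes, so that the higher count is near the share of all genes. Both lipolysis identifiers were among the higher and both catalase identifiers among the lower. The 4 identifiers listed for transcription regulators of fat and alkane use were within 2-fold in each comparison, with log2 ratios between −0.77 and 0.72.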

How the data were processed

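RNA-seq of 3 yeast cultures, 1 per strain, was used as deposited. Per the file headers, the authors' values are RPKM per gene. Per the labels' protocols, 1 µg of RNA from each 50 ml culture went into a TruSeq library. TopHat2 2.1.1 and Cufflinks 2.2.1 are listed, per the submitters' processing notes, with no role. A mouse build is listed too, and it cannot hold Yarrowia identifiers. The sources used here give no yeast build, annotation or strand setting.

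Whole reads, totals and lengths in multiples of 3 bp were recovered from the RPKM steps, and 99.99% of values above 0 came within 0.01 of a whole read. The totals are the smallest that the listed genes' reads do not exceed. The listed genes took 95.8 to 96.0% of them. Tested on simulated data for 6321 genes, in the comparison of mhy1Δ with wild type, 3 of 3 totals were recovered, 92.5% of recovered lengths equalled the simulated one, 99.5% equalled or divided it, and the median ratios of genes simulated at 1.5, 2, 4 and 0.25 times were 1.50, 1.99, 3.99 and 0.248. The counting interval held the simulated fold for 94% of 200 changed genes. Apart from these folds, reads were drawn as Poisson counts at the wild-type levels for all 3 libraries. The coverage therefore checks the computation and not the spread between cultures. The changed genes were drawn from better expressed genes, which left out POX1, at 2.41 RPKM in wild type.

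The comparison took in 6035 genes that reached 1 RPKM in any library, all 8 members included, with a pseudocount of 1 RPKM. Intervals of ratios are exact conditional binomial ones. Those of sums and of ratios to sums use a normal approximation. The genes named are the 8 members, MHY1, and the 2 genes nearest in pattern to POX2 and to POX5. The members and lists were chosen with earlier results of these data known. Names rest on the given identifiers and recalled protein lengths, since the reference table (assembly ASM176148v1) matched 0 of 6448 identifiers. Promoter and protein sequences were not analysed here. Alternatives were pseudocounts of 0.1 and 5 RPKM, no filter, a filter at 10 RPKM, other scalings and calls at 1.5-fold and 4-fold. Python 3.11.15, numpy 2.4.6, scipy 1.17.1 and pandas 2.3.3 were used.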

Additional observations from a re-analysis of the deposited data

How the results depend on the processing

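With 1 library per strain the main limit is the missing replicate check. Of 120 log2 ratios of the 8 genes under other pseudocounts and scalings and after centring, which was chosen after seeing the data, 111 kept their sign. The other 9 were those of POX3 in mhy1Δ against wild type and of MFE1 in both comparisons of MHY1 overexpression, all near 0. Of 60 such values for genes called at 2-fold, 59 stayed called, and the exception was POX1 in MHY1 overexpression against mhy1Δ, at 0.61 with a pseudocount of 5 RPKM. The filter at 10 RPKM left out POX1, so that 4 of the members in place of 5 were called higher in this comparison. Few reads widen the intervals of POX1, with 146 in mhy1Δ, and its low level makes its log2 ratio depend on the pseudocount. For MHY1 overexpression against mhy1Δ this ratio was 1.80, 1.30 and 0.61 with pseudocounts of 0.1, 1 and 5 RPKM.

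Calls at 1.5-fold gave 3 of the 8 genes lower in mhy1Δ and 6 higher in MHY1 overexpression, each against wild type, where 13.0% and 16.8% of all genes compared were called so. At 4-fold, 0 of the 8 genes were called in mhy1Δ or MHY1 overexpression against wild type, where 0.282% to 1.31% of all genes were called in a given direction. In MHY1 overexpression against mhy1Δ 0 of the 8 were then called higher and 1, POX5, lower, beside 4.46% and 1.54% of all genes. The scalings moved the summed RPKM ratios, given first for POX1 to POX6 and then for all 8 genes. For mhy1Δ against wild type they were 1.03 and 1.11 as deposited, 1.06 and 1.14 under median of ratios scaling, and 1.08 and 1.16 under upper-quartile scaling. For MHY1 overexpression against wild type they were 2.14 and 1.71 as deposited, 1.95 and 1.56 under median of ratios, and 1.998 and 1.60 under upper-quartile scaling. For MHY1 overexpression against mhy1Δ they were 2.07 and 1.54 as deposited, 1.84 and 1.36 under median of ratios, and 1.85 and 1.37 under upper-quartile scaling. The median log2 ratio of the 17 other pathway genes for MHY1 overexpression against wild type was 0.033 under median of ratios, 0.065 under upper-quartile scaling and 0.0094 after centring, where the deposited scaling gave 0.17. Against mhy1Δ it was −0.14, −0.13 and −0.18 in that order, below 0 where the deposited scaling gave 0.03. With a pseudocount of 5 RPKM 1 of these genes in place of 2 was called at least 2-fold lower in MHY1 overexpression than in wild type. Oxidase shares were also taken from reads in place of RPKM, with the reads of POX5 and POX6 at 2 times the recovered number to match their recalled lengths. These shares stayed within the approximate binomial intervals of the RPKM shares. No paired analysis was possible because there was a single library in each group, so no replicate could be left out. The promoter motif search and its alternative were not run, since no sequence was at hand here.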
